A study of Mus musculus with 6 samples.

Results

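The alpha crystallins and small heat shock proteins were examined as 6 genes, Cryaa, Cryab, Hspb1, Hspb2, Hspb3 and Hspb8, in lenses of newborn mice. They were taken by symbol, as every probe set annotated to 1 of these genes alone, which gave 11 of the 22626 probe sets tested and 6 of 12393 genes. The samples were 3 lens RNA samples labelled Le-AP-2alpha conditional mutant and 3 labelled wild-type littermate, all of postnatal day 0, each on its own one-colour array. The mutants are targeted in Tfap2a (older symbol Tcfap2a), which encodes the transcription factor AP-2alpha. As background on such lines, Le-Cre is a transgene in which Pax6 regulatory sequence drives the Cre recombinase in the lens placode and the surface ectoderm around it, so descendants of that ectoderm outside the lens can also lose the gene. The labels do not say which Tfap2a allele was used, whether littermates carried Cre, or how many animals went into a sample. The p-values therefore refer to the spread over these 3 and 3 samples, which may be technical in part. In whole lenses, fewer cells of a type and less RNA per cell cannot be told apart.

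Small heat shock proteins are chaperones that hold unfolding proteins in solution without using ATP. They share a conserved alpha-crystallin domain and assemble into oligomers. In the lens, alphaA-crystallin (Cryaa) and alphaB-crystallin (Cryab) are abundant structural proteins that also keep the beta and gamma crystallins soluble in fibre cells that no longer renew their proteins. Cryaa is largely restricted to the lens, whereas Cryab is also made in heart, muscle and glia. Hspb1 (Hsp25 in the mouse, HSP27 in humans) is inducible by heat and stress and acts on actin filaments. Hspb2 and Hspb3 are best known from muscle, where they form complexes with each other. Hspb8 works with the co-chaperone Bag3 to pass misfolded proteins to autophagy.

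The promoters of Cryaa and Hspb1 are shown because the factor targeted in the mutants binds DNA, and because, by brightest probe set, these members had the smallest and the largest spread between replicates. Each line gives the 250 bases before the gene start, 5′ to 3′ on the gene's strand, from RefSeq on GRCm38.p6. The Cryaa stretch is chr17:31677681-31677930 on the plus strand, and the Hspb1 stretch is chr5:135887669-135887918 on the plus strand. Capitals mark letters of a Maf half-site in Cryaa and of an AP-2 site and heat shock elements in Hspb1.
Cryaa: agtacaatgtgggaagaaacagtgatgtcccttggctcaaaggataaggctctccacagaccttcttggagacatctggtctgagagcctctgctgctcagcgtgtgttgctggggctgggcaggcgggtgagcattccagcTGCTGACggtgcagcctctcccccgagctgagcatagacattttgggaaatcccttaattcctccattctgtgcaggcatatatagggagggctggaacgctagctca
Hspb1: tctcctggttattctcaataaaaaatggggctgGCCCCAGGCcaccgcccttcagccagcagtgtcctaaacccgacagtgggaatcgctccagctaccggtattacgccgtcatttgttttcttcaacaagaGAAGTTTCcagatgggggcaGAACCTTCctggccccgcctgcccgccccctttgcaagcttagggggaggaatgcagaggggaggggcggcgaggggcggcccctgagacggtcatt
Of the 6 genes, 4 had an entry among the RefSeq promoters used here (Cryaa, Hspb1, Hspb3 and Hspb8). Both strands were searched for GCCNNNGGC, the palindromic AP-2 site, and 1 of the 4 held it, Hspb1, from 217 to 209 bases before the start. These letters were in 13.7% of all 32851 promoter stretches of this length. For the heat shock element, GAANNTTC or TTCNNGAA, 2 of the 4 had a match, against 12.8% of all stretches. Hspb1 had matches starting 117 and 97 bases before the start, and Hspb3 had 1 starting 224 bases before it. TGCTGAC, the half-site of Maf proteins, stood 108 to 102 bases before the start of Cryaa and was in 3.81% of all stretches. No overlap was found among the matches shown in capitals, and a match describes the letters of the window only.

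None of the 6 genes was called different between mutant and wild-type lenses after adjustment for all probe sets. Before adjustment, 1 of the 6, Hspb2, had a limma p under 0.05 (0.0447). limma, fitted over all 22626 probe sets with Benjamini-Hochberg adjustment, called 0 of the 11 probe sets, and each had an adjusted p of 0.999. Over the whole array, 0% of probe sets were called at an adjusted p under 0.05 and 3.28% had an unadjusted p under 0.05. By their brightest probe set, 4 of the 6 genes had lower values in mutants and 2 had higher values, whereas 52.2% of all genes had lower values. The median log2 difference was -0.13 over the 6 genes and -0.01 over all genes. The 3 mutant values and the 3 wild-type values overlapped for every one of the 11 probe sets, while the groups did not overlap for 8.36% of all probe sets. Tfap2a itself, on its brightest probe set, had log2 levels of 9.57, 9.64 and 9.83 in mutants, against 8.36, 9.26 and 9.56 in wild types, a difference of 0.62 ± 0.33 (SE). Its other probe sets also had higher means in mutants, 1421995_at at 8.86, 7.85 and 9.22 in mutants, against 6.44, 7.87 and 6.92 in wild types (1.57 ± 0.49), and 1421996_at by 0.36 ± 0.36. Each had a limma adjusted p of 0.999. The mean signal of the targeted gene was thus higher, not lower, in the libraries labelled mutant on all 3 probe sets, though not past the threshold; no position of its probes was used here, so it does not check the deletion, and every direction given below is that of the libraries labelled mutant. Wild-type replicate 1 stood apart, correlating with the other 5 at a Pearson r of 0.926 to 0.945 over all probe sets, where the 5 correlated among themselves at 0.974 to 0.985.

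**Figure D1:**
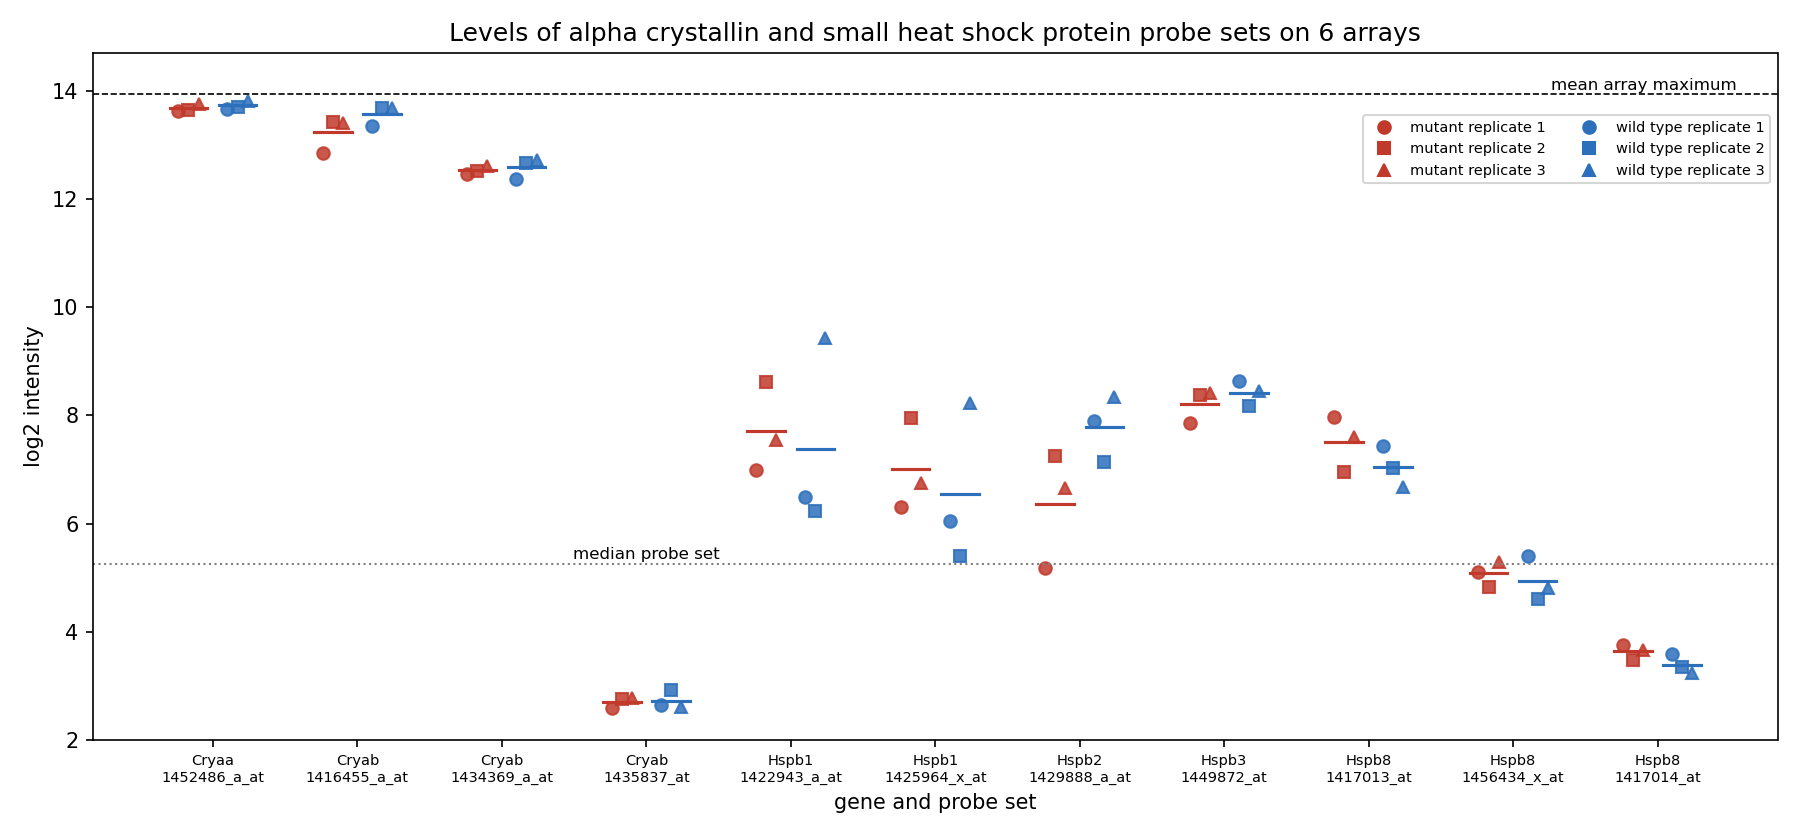
Log2 intensity of each of the 11 probe sets of the 6 genes on each array, mutants to the left in red and wild types to the right in blue, with a horizontal bar at each group's mean. The dashed line is the mean array maximum of 13.94 and the dotted line the median probe set at 5.26; Cryaa and 2 probe sets of Cryab lie near the top, and Hspb1 is spread widely within both groups.

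Cryaa was at almost the same level on all arrays and close to the array maximum. Its single probe set, 1452486_a_at, had log2 levels of 13.63, 13.64 and 13.76 in mutants, against 13.67, 13.71 and 13.81 in wild types. In linear intensity these were 12700, 12700 and 13900 in mutants, against 13000, 13400 and 14400 in wild types. No array was set apart, and the values of the groups interleave. The log2 difference, mutant minus wild type, was -0.05 ± 0.17 (SE), with a 95% interval of -0.45 to 0.34. The fit thus leaves room for a change of about that size in either direction. Its SE also draws on the spread of all probe sets, and was 0.11 with a prior that follows the level. The Cryaa level stood 0.21 to 0.30 below the brightest probe set in mutants and 0.16 to 0.26 below it in wild types. By rank it was between the 4th and the 12th brightest probe set on every array.

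The closeness to the maximum limits what the Cryaa value can show. Of all probe sets, 18 had a mean level within 0.5 of the mean array maximum of 13.94, and their median within-group SD was 0.074. The median was 0.118 for the 68 probe sets from 0.5 to 1 below the maximum, 0.194 for the 287 from 1 to 2 below it, and 0.465 for the 1888 between log2 8 and 9. The median absolute difference between mutants and wild types followed the same order, at 0.033, 0.044, 0.081 and 0.232. Both replicate spread and group differences were thus smaller near the top of the scale, in all probe sets and not in Cryaa alone. Cryaa had a pooled SD of 0.07, and 61% of the 41 probe sets within 0.5 of its level had a larger one.

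Cryab was measured by 3 probe sets, of which 2 were bright and 1 was near the bottom of the scale. The brightest, 1416455_a_at, had log2 levels of 12.86, 13.43 and 13.41 in mutants, against 13.35, 13.68 and 13.69 in wild types. Mutant replicate 1 was the lowest of the 6 arrays, and wild-type replicate 1 lay below the other mutants, so the groups overlap. The difference was -0.34 ± 0.23 (SE), a 1.26-fold lower mean in mutants, with a 95% interval of -0.89 to 0.22 and a limma adjusted p of 0.999. It was -0.15 without mutant replicate 1 and -0.45 without wild-type replicate 1.

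The second bright probe set of Cryab showed a smaller difference. 1434369_a_at had log2 levels of 12.46, 12.52 and 12.61 in mutants, against 12.37, 12.67 and 12.72 in wild types, a difference of -0.06 ± 0.18 (SE). Here wild-type replicate 1 was the lowest array, and mutant replicate 1 was close to the other mutants. The third, 1435837_at, was at 2.58 to 2.77 in mutants and 2.60 to 2.92 in wild types, far below the median probe set at 5.26, with a difference of -0.03 ± 0.18. The low value of mutant replicate 1 was therefore seen on 1 of the 2 bright probe sets. That probe set also had a wide spread for its level, with a pooled SD of 0.27, and 4.4% of the 91 probe sets within 0.5 of its level had a larger one. It stood 0.47 to 1.06 below the array maximum in mutants and 0.28 to 0.55 below it in wild types.

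Markers of lens fibre cells and of lens epithelium were measured on the same arrays. Of 9 listed fibre genes 6 were measured, and all 6 were above the median probe set. Their mean log2 level was 11.37 to 11.58 in mutants and 11.85 to 12.08 in wild types, without overlap. This was not particular to fibre genes. The means of the epithelium list below and of macrophage markers did not overlap either. Nor did those of corneal stroma and periocular mesenchyme markers (4.77 to 5.95 in mutants, 4.41 to 4.66 in wild types). The means of the other marker lists overlapped. The fibre markers did not move alike. The water channel Mip was at 12.72 ± 0.04 in mutants, against 12.69 ± 0.54 in wild types (SD, n = 3). Crygs, the gamma-S crystallin, was at 13.37 ± 0.03 in mutants, against 13.39 ± 0.19 in wild types (SD, n = 3). Lower mutant values of the connexin Gja3 (-0.72), Bfsp1 (-0.65) and Dnase2b (-1.44) made up most of the gap, each with a limma adjusted p of 0.999. Crybb1, a beta crystallin, was at 13.51 ± 0.20 in mutants, against 13.66 ± 0.21 in wild types (SD, n = 3), and the fibre cell nuclease Dnase2b at 8.39 ± 0.64 and 9.83 ± 0.55. Bfsp1, a beaded filament protein with which alpha crystallins associate, was at 12.14 ± 0.20 in mutants, against 12.79 ± 0.29 in wild types. The 5 lens epithelium markers had a mean log2 level of 7.76 to 7.95 in mutants and 8.13 to 8.44 in wild types. They did not move alike either, each with a limma adjusted p of 0.999. Gja1 (log2 difference 0.20) and Pax6 (0.47) had higher means in mutants. Cdh1 (-1.29), Slc38a3 (-1.04) and the dim Foxe3 (-0.71) had lower ones. Markers of neural retina and glia, which can also express Cryab, had a mean over 7 genes of 6.83 to 7.47 in mutants and 6.05 to 7.14 in wild types, and the astrocyte filament Gfap was dim. The part of cell content in the values of Cryab was not tested.

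Hspb2 had the largest difference of the 6 genes. Its probe set 1429888_a_at had log2 levels of 5.18, 7.24 and 6.66 in mutants, against 7.89, 7.14 and 8.33 in wild types. Linear intensities were 36.3, 151 and 101 in mutants, against 237, 141 and 322 in wild types. Mutant replicate 1 was lowest by a wide margin and wild-type replicate 3 highest, and the groups overlapped only in that mutant replicate 2 exceeded wild-type replicate 2. The difference was -1.42 ± 0.57 (SE), a 2.68-fold lower mean in mutants, with a 95% interval of -2.80 to -0.05. Its limma p was 0.0447 before adjustment and 0.999 after it. Of all genes, 1.72% had lower values in mutants at an unadjusted p under 0.05, and Hspb2 was the 1 of the 6 that did.

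The size of the Hspb2 difference depended on mutant replicate 1. Without that array the difference was -0.83 ± 0.42, and with each other array left out it lay between -1.86 and -1.15. Its pooled SD of 0.86 was above the median of 0.52 for probe sets of similar level, and 14.4% of those had a larger one. Cryab and Hspb2 overlap each other in the RefSeq gene table of GRCm38.p6, and no probe positions were used here, so signal from one gene on the other's probe set cannot be told apart from its own. On mutant replicate 1 the brightest Cryab probe set and the Hspb2 probe set both had their lowest value of the 6 arrays. So did Hspb3 (7.85), which overlaps neither gene, and Hsf4 (6.56). The second bright Cryab probe set was instead lowest on wild-type replicate 1 (12.37).

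The values of Hspb3 were close on all arrays but one. Its probe set 1449872_at had log2 levels of 7.85, 8.37 and 8.42 in mutants, against 8.64, 8.17 and 8.45 in wild types. The lowest array was again mutant replicate 1, and the other mutants lay within the wild-type range. The difference was -0.21 ± 0.24 (SE), with a 95% interval of -0.78 to 0.36, and it was -0.03 without mutant replicate 1. At a pooled SD of 0.28 its replicates were close, since 82.6% of probe sets of similar level had a larger one.

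Skeletal muscle, in which Hspb2 and Hspb3 are abundant, lies next to the eye as extraocular muscle. All 12 listed muscle genes were measured, and 1 of them, Actn2, a sarcomeric alpha-actinin, was above the median probe set. The mean log2 level of the list was 3.25 to 3.56 in mutants and 3.45 to 3.90 in wild types. The muscle creatine kinase Ckm (3.20 to 3.46 in mutants, 3.28 to 3.64 in wild types) and the embryonic myosin Myh3 (3.08 to 3.15 in mutants, 2.97 to 3.40 in wild types) were near the bottom of the scale on every array. Actn2 had log2 levels of 6.26, 6.98 and 5.91 in mutants, against 9.27, 6.96 and 8.21 in wild types. The overlap in Actn2 was between mutant replicate 2 and wild-type replicate 2, the same arrays as in Hspb2, and its difference of -1.76 had a limma adjusted p of 0.999. Whether carry-over of muscle RNA had a part in the Hspb2 values was not tested.

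**Figure D2:**
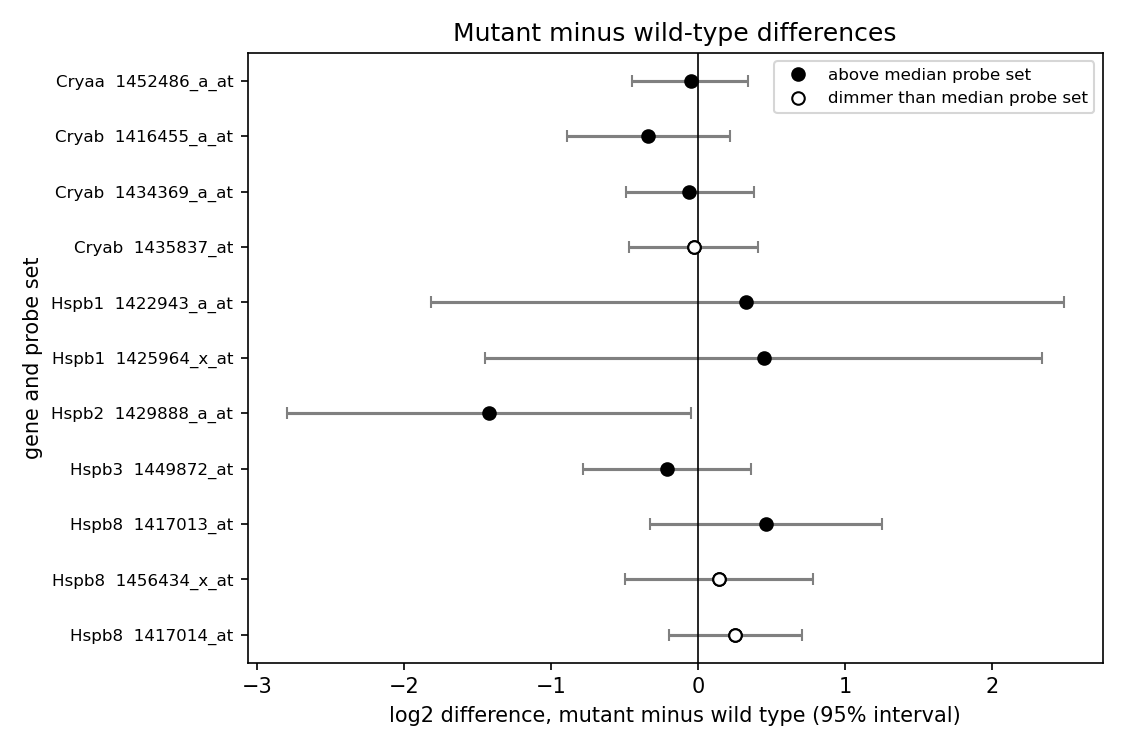
Log2 difference, mutant minus wild type, of each probe set of the 6 genes with the 95% interval of the limma fit; open points are dimmer than the median probe set. Of the 11 intervals, that of Hspb2 (-2.80 to -0.05) excludes 0 before adjustment, and those of Hspb1 are the widest.

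Hspb1, the inducible member, varied more between replicates than between the groups. Its brightest probe set, 1422943_a_at, had log2 levels of 6.99, 8.62 and 7.54 in mutants, against 6.49, 6.24 and 9.43 in wild types. Linear intensities were 127, 393 and 187 in mutants, against 89.6, 75.8 and 688 in wild types. Wild-type replicate 3 and mutant replicate 2 were high, and the other wild types were the lowest arrays. The second probe set, 1425964_x_at, whose suffix marks probes that can cross-hybridise, had 6.31, 7.96 and 6.74 in mutants, against 6.04, 5.40 and 8.22 in wild types. The 6 arrays stood in the same order on both probe sets.

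The group means of Hspb1 differed by less than these replicates did. On the brightest probe set the means were 7.72 ± 0.83 in mutants, against 7.39 ± 1.77 in wild types (SD, n = 3), a difference of 0.33 ± 0.90 (SE) with a 95% interval of -1.82 to 2.49. The second probe set differed by 0.45 ± 0.79. Without wild-type replicate 3 the difference of the brightest probe set was 1.35, and without mutant replicate 2 it was -0.12, so its sign rested on single arrays. Pooled SDs were 1.38 and 1.21 on the 2 probe sets, against medians of 0.50 and 0.52 among probe sets of similar level, of which 3.35% and 4.43% had a larger one.

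As a measure of RNA integrity, 3′ and 5′ control probe sets were compared on each array. The log2 signal of the 3′ control probe set of actin minus that of the 5′ one, which grows as RNA is shorter or amplification stops earlier, was 1.79, 2.16 and 1.25 in mutants, against 1.54, 1.24 and 2.17 in wild types. The same measure for Gapdh was 1.07, 1.39 and 0.75 in mutants, against 1.07, 0.73 and 1.20 in wild types. The highest values of both controls were on mutant replicate 2 and wild-type replicate 3, the arrays with the highest Hspb1. Mutant replicate 3, with higher Hspb1 than mutant replicate 1 (7.54 against 6.99), had lower values of both controls. The mean of the controls was used as a covariate, an alternative added after seeing the data. The difference of the brightest Hspb1 probe set was then 0.11 ± 0.67, against 0.33 ± 0.90 without the covariate. On the second probe set it was 0.24 ± 0.53, against 0.45 ± 0.79. Macrophage markers were highest on mutant replicate 2, with a mean log2 level over 8 genes of 6.88, where replicates 1 and 3 of the mutants had 5.41 and 5.57 and the wild types 4.99 to 5.33, and they were not high on wild-type replicate 3 (5.25). The part of RNA quality in the Hspb1 values was not otherwise tested.

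**Figure D3:**
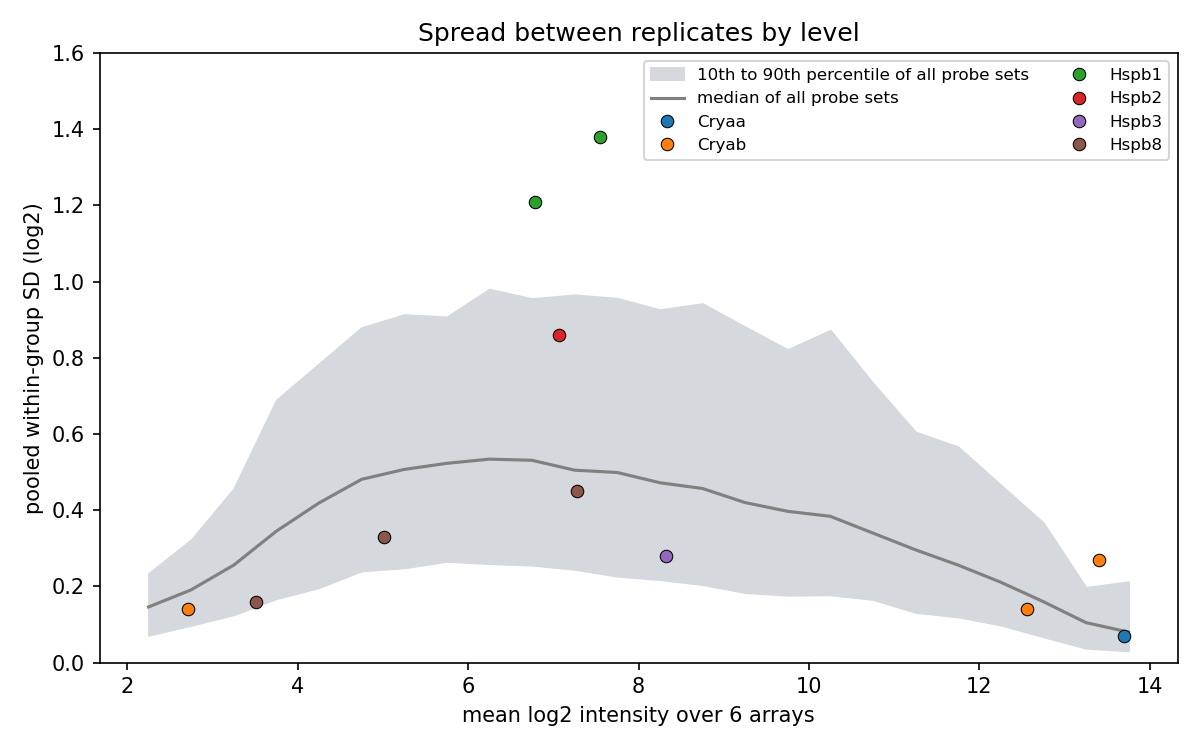
Pooled within-group SD of log2 intensity (vertical axis) against mean log2 intensity over 6 arrays (horizontal axis) for the 11 probe sets, over the median (line) and the 10th to 90th percentile (band) of all probe sets in steps of 0.5. Both Hspb1 probe sets (1.38 and 1.21) and the brightest Cryab probe set (0.27) lie above the band, and the band narrows near the maximum, where Cryaa (0.07) lies.

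Hspb8, the partner of Bag3, had somewhat higher values in mutants on each of its 3 probe sets. The brightest, 1417013_at, had log2 levels of 7.97, 6.95 and 7.60 in mutants, against 7.43, 7.03 and 6.68 in wild types. Mutant replicate 1 was the highest array and wild-type replicate 3 the lowest, and mutant replicate 2 lay within the wild-type range. The difference was 0.46 ± 0.33 (SE), a 1.37-fold higher mean in mutants, with a 95% interval of -0.33 to 1.25. The dimmer probe sets 1417014_at and 1456434_x_at differed by 0.25 ± 0.19 and 0.14 ± 0.27, with levels of 3.63 ± 0.14 in mutants, against 3.38 ± 0.18 in wild types for the first, and 5.08 ± 0.23 and 4.94 ± 0.41 for the second (SD, n = 3). Both lie below the median probe set. The difference of the brightest probe set moved to 0.93 when mutant replicate 2 and wild-type replicate 1 were dropped together and to 0.23 without mutant replicate 1, with a limma adjusted p of 0.964 and 1.

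**Figure D4:**
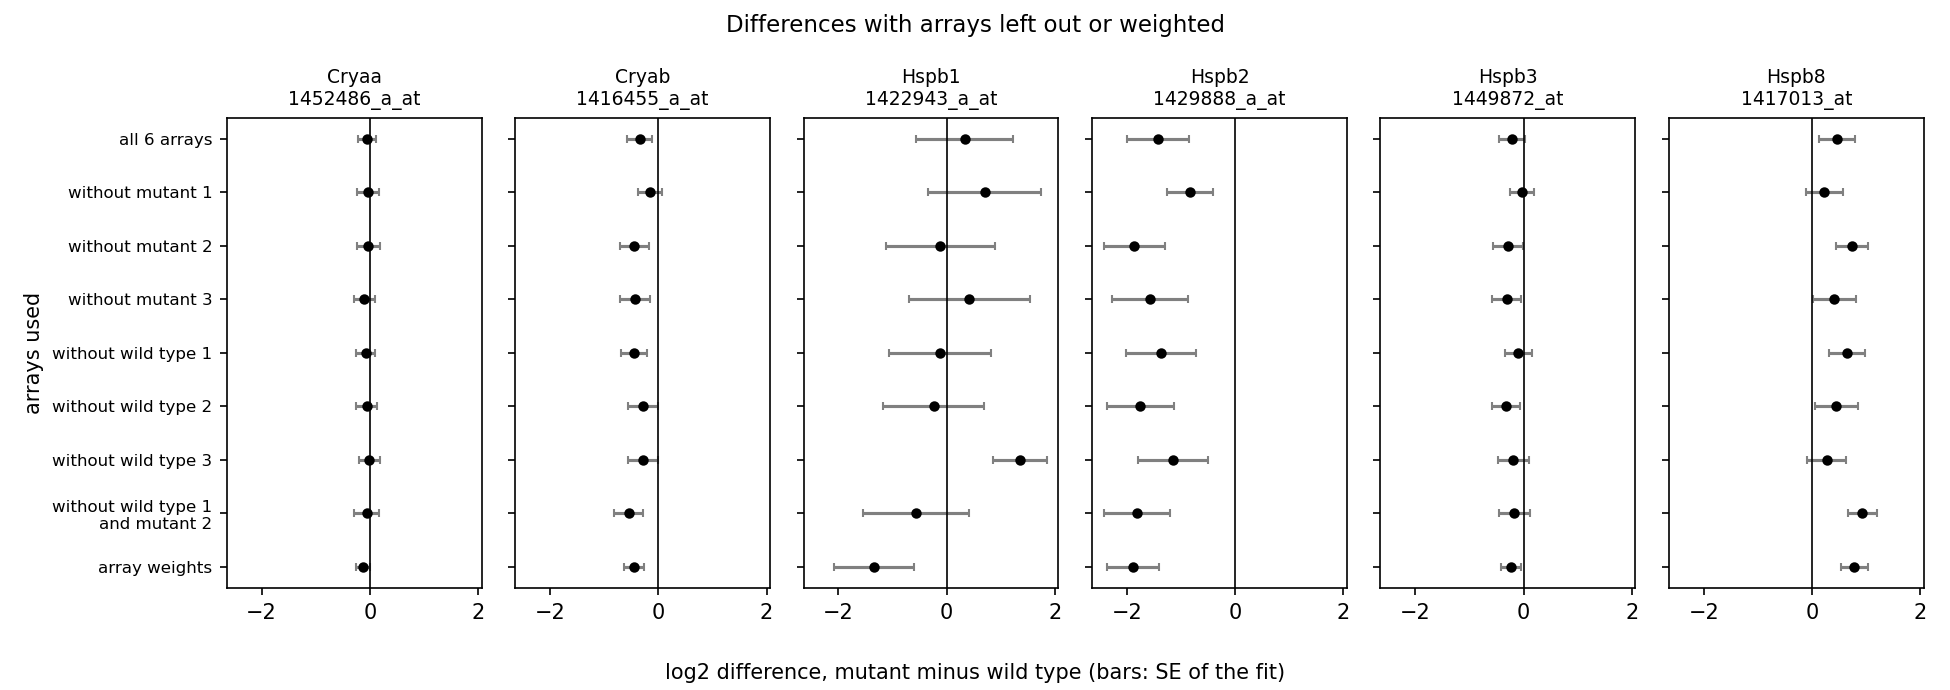
Log2 difference, mutant minus wild type, of the brightest probe set of each of the 6 genes with all arrays, with each array left out, with mutant replicate 2 and wild-type replicate 1 dropped together, and with array weights; bars are the SE of the fit. Hspb1 ranges from -1.34 to 1.35 and crosses 0, Hspb2 stays below 0 from -1.88 to -0.83, and Cryaa stays near 0.

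The other members of the family gave little signal. Of Hspb6, Hspb7, Hspb9 and Odf1, 2 were measured by a probe set with 1 symbol, and both were dim. Hspb7, known from heart and muscle, was at 2.70 ± 0.08 in mutants, against 2.99 ± 0.26 in wild types (SD, n = 3). Odf1, a sperm tail protein with an alpha-crystallin domain, was at 2.97 ± 0.10 and 3.23 ± 0.13, and its groups did not overlap, as was the case for 8.8% of all genes. Neither passed limma's test (adjusted p = 0.999).

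Larger chaperones and heat shock factors were examined as a list of 21 genes, of which 19 were measured. None passed at an adjusted p under 0.05 (0 in limma) and none at an unadjusted p under 0.05 (0), which 3.85% of all genes had. Mutant values were higher for 6 and lower for 13, with a median log2 difference of -0.05 against -0.01 over all genes. The lowest p values belonged to Hspa1b, Hspa5 and Stip1. Hspa1b, a heat-inducible Hsp70 whose near-identical copy Hspa1a can share its signal, had 7.0, 7.59 and 6.77 in mutants, against 4.55, 6.55 and 6.53 in wild types, and its groups did not overlap, as for 8.8% of all genes. Hspa5, the Hsp70 of the endoplasmic reticulum, was at 10.73 ± 0.31 in mutants, against 10.38 ± 0.15 in wild types, and the Hsp70 to Hsp90 adaptor Stip1 at 8.32 ± 0.48 and 8.79 ± 0.34 (SD, n = 3). Mutant replicate 2, also high in Hspb1, had the highest value of all arrays on the brightest Hspa1b probe set (7.59). On wild-type replicate 3, also high in Hspb1, Hspa1b (6.53) was level with wild-type replicate 2 (6.55). Within the list, Stip1 (9.18), Bag3 (5.7) and Hsf4 (8.78) had their highest value of all arrays on wild-type replicate 3. Others did not, such as Hspa5, at 10.55 there and highest on mutant replicate 2 (10.99). Whether a heat shock response had a part in the Hspb1 values was not tested. Bag3 was dim, at 5.18 ± 0.22 in mutants, against 5.22 ± 0.50 in wild types. Hsf1, the main factor of the heat shock response, was not analysed here.

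Factors of lens development and crystallin gene regulation were examined as a list of 15, of which 13 were measured. Not every one of them is known to act on the alpha crystallin genes. None passed at an adjusted p under 0.05 (0 in limma), and 1 had an unadjusted p under 0.05, Foxe3, where 3.85% of all genes did and 1.72% did with lower values. Mutant values were lower for 10 and higher for 3, against 52.2% lower over all genes, and the median log2 difference was -0.28, against -0.01 over all genes. Hsf4, the heat shock factor of the postnatal lens, had 6.56, 8.07 and 7.24 in mutants, against 8.10, 7.02 and 8.78 in wild types. Its lowest array was mutant replicate 1 and its highest wild-type replicate 3, as for Hspb2, and the groups overlapped. Pax6, needed for eye formation, was at 10.24 ± 0.11 in mutants, against 9.77 ± 0.96 in wild types (SD, n = 3). Foxe3, a factor of lens epithelial cells, had 3.98, 3.34 and 3.75 in mutants, against 4.84, 4.0 and 4.37 in wild types, at dim levels. Sox2, an early lens factor, was at 8.08 ± 0.27 in mutants, against 8.54 ± 0.43 in wild types. Maf (4.11 ± 0.37 in mutants, 4.43 ± 0.55 in wild types) and Sox1 (3.03 ± 0.17 in mutants, 3.20 ± 0.18 in wild types), both activators in fibre cells, were dim. Each was read from a single probe set, so low expression and a weak probe set cannot be told apart.

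The genes most like each member over the 6 arrays were taken as those with the highest Pearson correlation of log2 level, among 6764 genes brighter than the median probe set. For Cryaa these were Psmb1, a proteasome subunit (0.991), and Washc3, of the WASH complex (0.964). For Cryab they were Tmlhe, an enzyme of carnitine synthesis (0.958), and the small leucine-rich proteoglycan Ogn (0.942). Hspb1 was most like the copine Cpne2 (0.984) and Cenpv (0.977). Hspb2 was most like Mocs2, of molybdenum cofactor synthesis (0.991), and Fez2 (0.976), and Hspb3 was most like the phospholipase Plcd1 (0.985) and the ATP-gated channel P2rx4 (0.978). Hspb8 was most like Dera, an aldolase of deoxyribose phosphate (0.974), and Ints7, of the Integrator complex (0.970). With 6 arrays, between 7 and 40 genes per member had a correlation over 0.9, and all points share the same arrays and normalisation, so these names describe the arrays only. No member of the 6 genes was among the most alike genes of another.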

How the data were processed

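RNA from 3 mutant and 3 wild-type newborn lens samples was amplified, labelled with biotin and hybridised to 1 array each, per the labels' protocols. The deposited values are linear intensities per probe set. RMA is named per the submitters' processing notes, without version, settings or the step back to a linear scale; its quantile normalisation can compress differences at both ends of the scale. Here log2 was taken with no offset, and 64 array controls among 22690 probe sets were left out. Gene names came from the array's annotation as of 2016, and those of the 11 probe sets were the same in RefSeq GRCm38.p6. A gene was represented by its brightest probe set.

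Tests used limma 3.58.1 in R 4.3.3 (lmFit and eBayes, two-sided, no covariate, Benjamini-Hochberg over 22626 probe sets, threshold 0.05). Tested on simulated data for 22626 probe sets, it recovered 8%, 56%, 74% and 84% of probe sets changed by a log2 of 1, 2, 3 and 4, with 8 false calls. In that simulation 50 probe sets were changed at each size, with normal noise drawn independently for each probe set. Deviations shared across an array, as on wild-type replicate 1, were not simulated, so these rates may not hold for the real arrays. No pair of arrays had more than 0.186% equal values. The genes and lists were chosen with earlier results of these data known. Named genes were every member, the other family members measured, the 3 of lowest p and fixed genes of each list, and the 2 most alike genes per member. Replicate numbers did not pair the arrays (correlations of deviations -0.0674, -0.262 and -0.158). Having 3 arrays a group limits the precision. Alternatives were the replicate block, median centring, quantile normalisation, an offset of 16, dim probe sets left out, a trended prior, array weights, arrays left out, averaging over the probe sets of a gene, and a 3′ to 5′ covariate.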

Additional observations from a re-analysis of the deposited data

How the results depend on the processing

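Under 15 alternative settings, 0 probe sets of the 6 genes passed an adjusted p of 0.05 in limma, as with all arrays, and the lowest adjusted p was 0.223, for Hspb2 with array weights. Over the whole array, 0 probe sets were called under each setting but array weights, which called 7; those weights were 5.65 for wild-type replicate 3 and 0.224 to 1.17 for the other arrays. The gene list counts were 0 under all settings, also after averaging the probe sets of each gene. Of 162 differences of members under alternatives, 148 kept their sign and 14 turned, 12 of these within 1 SE of 0. The Hspb1 probe sets 1422943_a_at and 1425964_x_at were at -1.34 and -0.92 with array weights and at -0.57 and -0.29 without wild-type replicate 1 and mutant replicate 2. With 1 array left out, 1422943_a_at ran from -0.24 to 1.35, with -0.12 without mutant replicate 2 and without wild-type replicate 1, and 1425964_x_at from -0.13 to 1.28, with -0.03 without mutant replicate 2. The dim Cryab probe set 1435837_at was at 0.06 with array weights, 0.03 without mutant replicate 1 and 0.07 without wild-type replicate 2, and ran from -0.09 to 0.07 over the arrays left out. Without wild-type replicate 3, Cryab 1434369_a_at was at 0.01 (range -0.16 to 0.01), and without wild-type replicate 2, Hspb8 1456434_x_at was at -0.02 (range -0.02 to 0.37). The cause was not tested. With the replicate number as a block, which only shares a number between samples, 0 member probe sets were called and the Hspb2 difference was -1.42 ± 0.58. Signal near the array maximum limits what can be read from Cryaa and Cryab, and signal near the bottom limits 1435837_at and 1417014_at.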
